A study of Rattus norvegicus with 4 samples.

Results

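In cardiac fibroblasts (CFs), 374 genes carried 2 or more m6A peaks with the empty plasmid (Vector) and none in the list from cells overexpressing FTO. They were chosen by that count alone, from 8534 genes that had a gene ID and a peak in either list, and they held 988 of the 21249 Vector peaks, or 4.65% (95% Wilson interval 4.37–4.94%). The number of peaks in both lists is therefore what selected these genes, and it is given below as a description. Their functions and the lengths of their Vector peaks were not used by the selection.

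Both groups were primary neonatal rat CFs (NRCFs) from hearts of Sprague-Dawley pups no older than 3 days, with no deletion or disease model in either group. The Vector group is labelled as the wild-type control and received the empty plasmid, and the FTO group received a plasmid that carries rat Fto cDNA. Cells were collected 48 h after transfection, and each group had 1 m6A immunoprecipitation (IP) library and 1 input library, so the comparison of Vector with FTO has no replicates behind it. Transfection reaches a part of a culture, and which cells took up the plasmid was not recorded in the labels. Each group came as 1 list of peaks with a name, a length in bp, a transcript and mostly a gene ID, without positions, heights or read counts. The sequencing depth is unknown. The Wilson intervals below cover counting error only.

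m6A is a methyl mark on adenosines inside messenger RNA. It is written by a methyltransferase complex around Mettl3 and Mettl14, and it is bound by reader proteins that affect the splicing, export, translation and decay of the transcript. FTO is an m6A eraser, a demethylase that takes the methyl group off. In m6A-seq an antibody pulls down methylated RNA fragments, and a peak is a stretch of a transcript that is enriched over the input RNA. RNA levels and library depths were not analysed here, so the m6A on a transcript, the amount of the transcript and the depth of the libraries cannot be told apart in these lists.

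The transfected gene, Fto, had 3 Vector peaks and 9 FTO peaks. The culture was checked against marker genes of the labelled cell type. The 14 fibroblast markers carried 15 Vector and 12 FTO peaks, with fewer FTO peaks in 4, the same number in 1 and more in 2. Pdgfra had 7 and 6, Fn1 3 and 1, and Lum 1 and 2, whereas the collagen genes Col1a1, Col1a2 and Col3a1, with Dcn and Vim, were absent from both lists. A peak list shows where m6A was called and does not measure how strongly a gene is expressed. The cardiomyocyte marker list carried 25 Vector and 26 FTO peaks, so genes of another heart cell type were present in both lists. Summed peaks were 13 and 11 for endothelial markers, 32 and 30 for smooth muscle and pericyte markers, 8 and 5 for lymphocyte markers, 14 and 10 for Schwann and neural markers, and 4 and 2 for epicardial markers. The share of these cells in the culture was not tested.

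The 374 genes were 8.29% of the 4512 genes with 2 or more Vector peaks. The opposite pattern, 2 or more FTO peaks and no Vector peak, held for 126 genes, or 3.28% of the 3837 genes with 2 or more FTO peaks. The FTO list was shorter as a whole (17796 peaks). Among all 8534 genes, 3555 (41.7%) had fewer FTO than Vector peaks, 3161 had the same number and 1818 had more. Among the 4512 genes with 2 or more Vector peaks, 2540 (56.3%) had fewer.

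Most of the 374 genes stood at the minimum of the selection. There were 240 genes with 2 Vector peaks, 77 with 3, 34 with 4, 10 with 5, 7 with 6, 3 with 7, and 1 gene each with 8, 9 and 11. The share of genes without an FTO peak fell off with the number of Vector peaks. It was 31.6% among genes with 1 Vector peak, 14.0% with 2, 8.04% with 3, 5.69% with 4, 2.58% with 5 and 0.515% with 10 or more. In the opposite direction the shares were lower at each of these numbers, with 20.7% of genes with 1 FTO peak, 6.27% with 2, 2.42% with 3, 0.815% with 4 and 0.885% with 5 lacking a Vector peak. For genes with 2 peaks, the Wilson intervals of the shares were 12.4–15.7% and 5.17–7.58%. Of the 1243 genes with 5 or more Vector peaks, 23 had no FTO peak, whereas 4 of the 955 genes with 5 or more FTO peaks had no Vector peak.

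**Figure D1:**
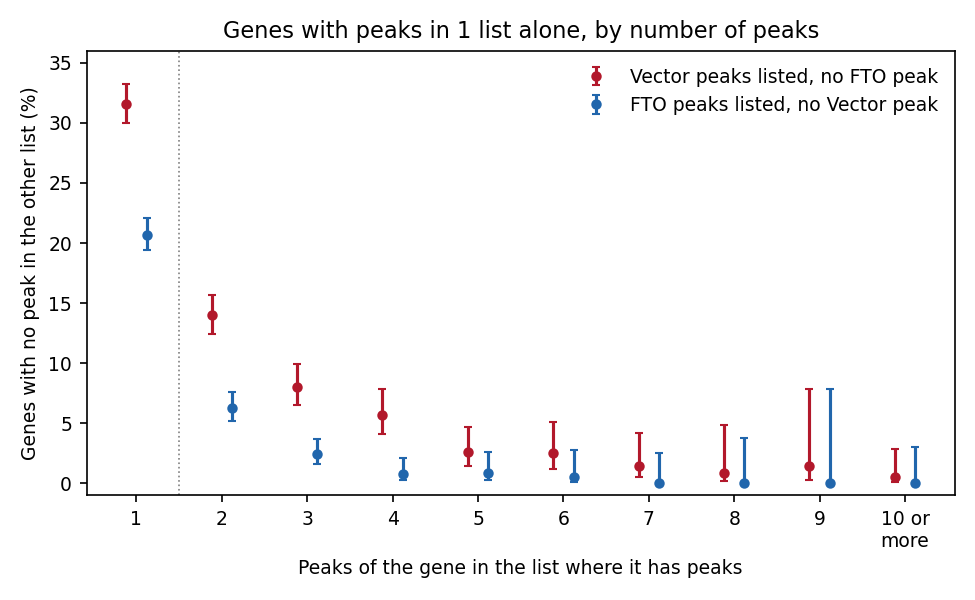
Share of genes with no peak in the other list (%, y axis) against the number of peaks in the list that has them (x axis), for Vector peaks without an FTO peak and FTO peaks without a Vector peak. Points are shares and bars are 95% Wilson intervals. The Vector series runs from 31.6% at 1 peak to 0.515% at 10 or more, and lies above the FTO series at every number of peaks.

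Just outside the selection stood 1015 genes with 1 Vector peak and no FTO peak, and 836 genes with 2 or more Vector peaks and 1 FTO peak, of which 555 had 2 Vector peaks. Irag1 had 11 Vector peaks and 1 FTO peak and Col4a4 had 9 and 1, so a single FTO peak kept both out. Frmd4b, Piezo2 and Adamtsl3 each had 8 and 1. A symbol was found for 361 of the 374 genes, and all 361 are annotated as protein coding. The Vector peaks lay on 1 transcript for 321 genes and on 2 transcripts for 53, and none of these transcripts appeared in the FTO list under any gene ID.

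Peak lengths are given from 5′ to 3′. The strand was not resolved for some genes, and their peaks are given in chromosome order. In the text these are Matn2, Foxp2, Sh2d4a, Septin6, Racgap1, Cdc6, Recql4, E2f8, Ccne2, Pkmyt1, Matn4, Col14a1, Parva, Siglec1, Itgal, Dok2, Ikbke, Angpt2, Mapk9, Lif, Lmo2 and Mycn.

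Acan led the set with 11 Vector peaks. It encodes aggrecan, a large proteoglycan that carries chondroitin sulfate chains, and it is a gene that the study itself names. From 5′ to 3′ its peaks measured 327, 77, 384, 175, 128, 294, 204, 3471, 159, 83 and 183 bp. The eighth was the longest, and the other 10 lay between 77 and 384 bp. Limch1, an actin-binding activator of non-muscle myosin, had 9 peaks of 196, 253, 36, 127, 409, 222, 81, 105 and 124 bp. None of them was longer than 409 bp. Tnik, a kinase that acts on the cytoskeleton and in Wnt signalling, had 8 peaks of 424, 57, 176, 67, 205, 111, 189 and 185 bp.

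Genes with 7 peaks were the membrane protein gene Tmem132d, the secreted matrix glycoprotein gene Adamtsl2 and the mitotic kinesin gene Kif4a. The peaks of Tmem132d measured 118, 887, 184, 206, 274, 192 and 1271 bp over 2 transcripts. Those of Adamtsl2, which binds fibrillin and latent TGF-β binding protein, measured 188, 358, 370, 214, 171, 145 and 732 bp. For Kif4a, which shapes mitotic chromosomes and the spindle midzone, they measured 176, 133, 145, 171, 108, 78 and 177 bp. In Tmem132d, Adamtsl2 and Kif4a the longest peak was the one nearest the 3′ end, although in Kif4a all 7 were short.

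The 7 genes with 6 peaks had mixed functions. The matrix protein matrilin-2 (Matn2) carried peaks of 267, 162, 570, 414, 153 and 313 bp. The ephrin receptor Epha7 carried 97, 670, 336, 125, 156 and 115 bp. The splicing helicase gene Aqr carried 111, 110, 136, 175, 114 and 410 bp. Pik3ap1, an adaptor between leukocyte receptors and PI3K, carried 420, 143, 65, 206, 73 and 137 bp. The remaining 3, Bub1b, Spdl1 and Mcm3, are cell cycle genes and are described with them below.

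Genes with 5 peaks included the transcription factor Foxp2 with 147, 189, 132, 692 and 1975 bp, and the adaptor gene Sh2d4a with 984, 202, 112, 172 and 367 bp. In Gpbp1 (120, 224, 188, 103 and 952 bp), Polr3b, a subunit of RNA polymerase III (118, 109, 123, 120 and 860 bp), and Stip1, a co-chaperone of Hsp70 and Hsp90 (83, 210, 169, 125 and 468 bp), 4 short peaks were followed by 1 long peak at the 3′ end. Blvra, the gene of biliverdin reductase A, had the same order with 124, 98, 108, 172 and 368 bp. The non-muscle myosin gene Myh14 (213, 207, 249, 213 and 162 bp), Septin6 (133, 169, 97, 162 and 196 bp), the kinetochore gene Ndc80 (206, 153, 90, 131 and 103 bp) and the integrin gene Itga9 (188, 128, 68, 102 and 99 bp) held peaks of under 250 bp throughout.

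**Figure D2:**
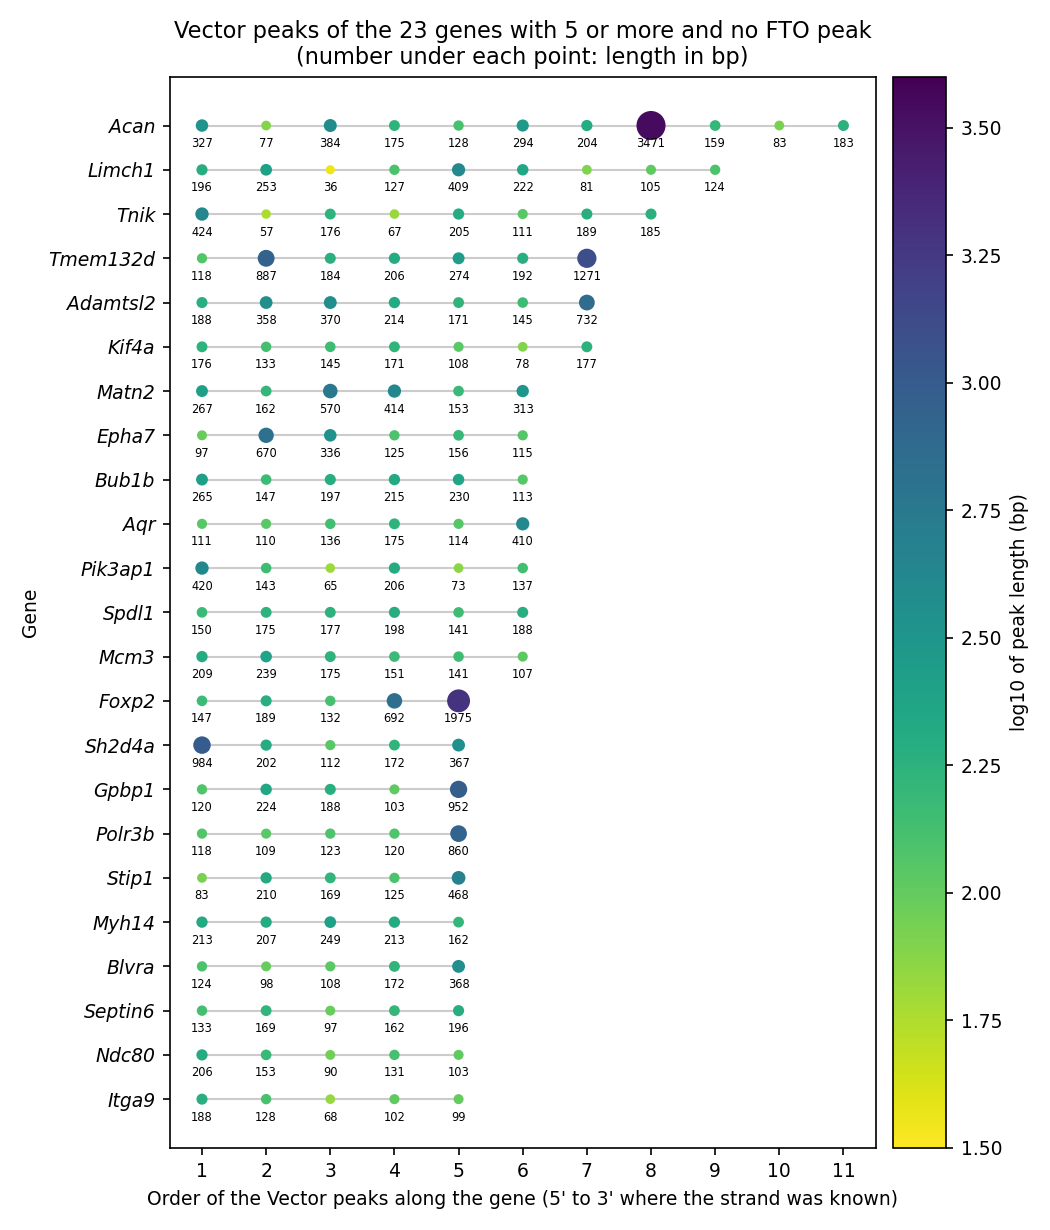
Vector peaks of the 23 genes with 5 or more Vector peaks and no FTO peak (y axis), in their order along the gene (x axis, 5′ to 3′ where the strand was known). Each point is 1 peak, larger and darker points are longer peaks, and the number under it is the length in bp. Acan has 11 peaks with 1 of 3471 bp, and the longest peaks of Foxp2 and Tmem132d have 1975 and 1271 bp.

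The list for mitosis, centromere and cytokinesis had 73 genes with a peak and 48 with 2 or more Vector peaks, of which 11 (22.9%, 13.3–36.5%) had no FTO peak, beside 8.29% of all genes. Over the whole list the peaks numbered 293 in Vector and 128 in FTO, and FTO peaks were fewer in 60 genes, equal in 12 and more in 1. The list for DNA replication and its checkpoint had 34 genes with a peak and 18 with 2 or more Vector peaks, of which 6 (33.3%, 16.3–56.3%) had no FTO peak. Its peaks numbered 105 and 42, with fewer in 22 genes, equal in 8 and more in 4. With peaks of at least 200 bp in both lists, the counts were 3 mitotic and 2 replication genes. These shares use the same peak counts that selected the genes and have no test.

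The mitotic genes came from several steps of chromosome segregation. Kif4a, described above, led with 7 peaks. Bub1b, a kinase of the spindle checkpoint, had 265, 147, 197, 215, 230 and 113 bp, and Spdl1, which brings dynein to kinetochores, had 150, 175, 177, 198, 141 and 188 bp. Ndc80, which couples kinetochores to microtubules, was the fourth by number. Those with 3 peaks were Cep55, needed for the final cut between daughter cells (195, 276 and 311 bp), and Stag2, a cohesin subunit (139, 118 and 127 bp). Those with 2 were the motors Kif2c (106 and 694 bp) and Kif23 (124 and 129 bp), the spindle protein gene Hmmr (215 and 153 bp), the kinase gene Aurka (256 and 723 bp) and Racgap1, a partner of Kif23 in cytokinesis (89 and 112 bp). Of the whole list, genes with many Vector peaks mostly kept some in FTO, among them Cenpe with 19 and 8, Cenpf with 16 and 8, Cit with 15 and 4, and Tpx2 with 13 and 5.

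The replication genes were led by Mcm3, a subunit of the replicative helicase, with peaks of 209, 239, 175, 151, 141 and 107 bp. Rfc2, a subunit of the clamp loader, had 132, 102, 158 and 550 bp. Cdc6, which loads the helicase at origins, had 127, 194 and 991 bp. Rnaseh2b, of the enzyme that removes ribonucleotides from DNA, had 82, 81 and 599 bp. Pola1, the catalytic subunit of DNA polymerase α, had 53 and 81 bp, and the helicase gene Recql4 had 1065 and 750 bp. Other helicase subunits kept FTO peaks, with 4 Vector and 3 FTO peaks in Mcm2, 5 and 1 in Mcm5 and 6 and 3 in Mcm6. Clspn, of the replication checkpoint, had 13 and 2.

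Further genes with roles in S phase or mitosis were outside both lists and were picked out after their values were seen. They were the repressor E2f8 with 4 peaks (401, 544, 162 and 333 bp), Rad51ap1 with 4 (110, 150, 162 and 345 bp), the chromatin assembly gene Chaf1b with 3 (432, 92 and 219 bp) and Mastl, a kinase for mitotic entry, with 3 (1110, 59 and 252 bp). Ccne2, encoding cyclin E2, had 90 and 100 bp, Tk1, encoding thymidine kinase, had 128 and 111 bp, Slbp, which binds histone mRNA, had 117 and 105 bp, and Pkmyt1, an inhibitory kinase of Cdk1, had 483 and 494 bp. No gene of the DNA damage repair list was in the set. That list had 31 genes with 2 or more Vector peaks (0 of 31), and the Wilson interval of this share includes the 8.29% of all genes. The list carried 162 Vector and 128 FTO peaks. It leaves out some genes with roles in repair that were in the set, such as Rad51ap1, Gen1 and Tdg, named after their values were seen. The 0 of 31 therefore holds for the listed genes only.

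Many mitotic genes are switched on together through a cell cycle element called CHR, here searched as TTTGAA, beside CCAAT boxes in their promoters. Both were searched on both strands (TTCAAA and ATTGG on the other strand) in the 250 bases before the annotated start, in the promoters that RefSeq gives for GRCr8. TTTGAA was found in 16.0% of all 27457 promoters, CCAAT in 34.3% and both in 5.76%. Of the 290 promoters of genes of the set, 10.7% held TTTGAA, 34.5% held CCAAT and 3.79% held both, beside 9.27%, 34.5% and 3.48% of the 3334 promoters of genes that kept an FTO peak. Among mitotic genes of the set both occurred in 3 of 10 promoters, and among mitotic genes with 2 or more Vector peaks that kept an FTO peak in 12 of 32. The 3 promoters are shown because these genes carry both motifs and none of them had an FTO peak. Each is written 5′ to 3′ on the strand of the gene, which is the minus strand, with CCAAT boxes and TTTGAA in capitals in either orientation, and Hmmr lies at chr10:25665216-25665465, Spdl1 at chr10:19798298-19798547 and Kif23 at chr8:71320585-71320834.
Hmmr: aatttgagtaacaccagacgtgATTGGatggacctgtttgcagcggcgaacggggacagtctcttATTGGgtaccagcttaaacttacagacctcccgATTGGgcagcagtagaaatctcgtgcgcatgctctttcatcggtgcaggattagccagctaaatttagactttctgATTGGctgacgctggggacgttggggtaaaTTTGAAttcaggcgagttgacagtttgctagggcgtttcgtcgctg
Spdl1: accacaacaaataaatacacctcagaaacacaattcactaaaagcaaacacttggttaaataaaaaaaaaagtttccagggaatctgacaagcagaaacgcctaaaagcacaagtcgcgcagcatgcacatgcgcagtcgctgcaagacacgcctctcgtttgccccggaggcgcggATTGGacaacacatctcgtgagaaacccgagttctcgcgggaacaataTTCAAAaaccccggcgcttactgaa
Kif23: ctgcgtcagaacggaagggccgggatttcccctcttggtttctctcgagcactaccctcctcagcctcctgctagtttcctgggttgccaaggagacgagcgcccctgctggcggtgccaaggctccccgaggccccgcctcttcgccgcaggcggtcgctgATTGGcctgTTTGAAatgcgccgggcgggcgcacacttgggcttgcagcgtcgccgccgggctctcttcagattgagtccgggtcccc
Hmmr held 4 CCAAT boxes, all as ATTGG, and 1 TTTGAA, whereas Spdl1 and Kif23 held 1 of each. A match to these letters is a description of the sequence.

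Extracellular matrix and adhesion genes included the gene with the most peaks. Of 33 genes of the list for matrix proteoglycans and glycoproteins with 2 or more Vector peaks, 6 (18.2%, 8.61–34.4%) had no FTO peak, and the list carried 155 Vector and 110 FTO peaks. Besides Acan and Matn2 these were Ltbp1, which anchors latent TGF-β in the matrix (661, 292, 150 and 954 bp), the basement membrane gene Frem1 (302, 412, 280 and 200 bp), the microfibril gene Fbn2 (123 and 410 bp) and matrilin-4, Matn4 (243 and 414 bp). In the same list the FTO peaks outnumbered the Vector peaks in 12 genes, among them Cspg4 with 3 and 6, Thbs2 with 3 and 7 and Smoc2 with 2 and 8. FTO peaks were fewer in 27 genes.

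Of the list for matrix proteases and collagen-modifying enzymes, 4 of 31 genes (12.9%, 5.13–28.9%) had no FTO peak. They were Adamtsl2, the collagen prolyl hydroxylase P3h2 (282, 150, 190 and 141 bp), the metalloproteinase inhibitor Timp3 (409 and 83 bp) and the metalloproteinase Mmp28 (111 and 246 bp). Of the collagen chains, 2 of 17 (11.8%, 3.29–34.3%) had none. These were Col14a1, of a collagen that lies on fibrils (88 and 117 bp), and Col4a3, of basement membranes (282 and 78 bp). Among integrins and focal adhesion genes, 4 of 30 (13.3%, 5.31–29.7%) had none, namely the integrin chains Itga9 and Itga11 (20, 208 and 1423 bp) and the adaptors Parva (212 and 73 bp) and Lims2 (272 and 160 bp). This list leaves out the leukocyte integrin chains Itgal and Itgad, which had 4 and 2 Vector peaks and no FTO peak. Its share and interval therefore hold for the listed genes only. Itga11, the α chain of a collagen receptor of fibroblasts, held a peak of 20 bp, the shortest length in the set and found in Tirap as well, beside 1 above 1000 bp. The intervals of these 3 lists include the 8.29% of all genes.

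Of the actin cytoskeleton list, 7 of 54 genes had no FTO peak (interval 6.42–24.4%, which includes the 8.29% of all genes), with 432 Vector and 340 FTO peaks over the list. Limch1 and Tnik led them, in a list that was chosen with earlier results of these data known. Tnik also counts in the Wnt list. The kinase gene Pak2, which acts below Rac and Cdc42, had 148, 108, 133 and 113 bp, the unconventional myosin gene Myo7a had 219, 210 and 120 bp, and the formin gene Fmnl3 had 82, 81 and 150 bp. Dock8 and Vav1, both exchange factors best known in leukocytes, had 4 peaks each, of 168, 103, 183 and 107 bp and of 54, 115, 100 and 109 bp.

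Genes of innate immunity had the highest share of the 19 functional lists. Of 14 genes with 2 or more Vector peaks, 5 (35.7%, 16.3–61.2%) had no FTO peak, and the list carried 59 Vector and 35 FTO peaks. They included complement C3 (157, 143, 109 and 159 bp), the complement subunit gene C1qa (65 and 170 bp), which the study names, the endotoxin receptor Tlr4 (331 and 2001 bp) and the macrophage transcription factor Irf8 (42, 184 and 651 bp). FTO peaks were fewer in 20 genes of this list, equal in 11 and more in 6. The count became 1 gene under a 200 bp minimum and 2 genes under a minimum of 3 Vector peaks. The whole set of 374 genes became 170 and 134 under these settings.

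Markers of macrophages, a cell type that NRCF cultures can hold, also had fewer FTO peaks. Of the 14 markers 9 had a peak, and their summed number was 22 in Vector and 10 in FTO, with fewer FTO peaks in 7, the same in 1 and more in 1. Cd163, the haemoglobin scavenger receptor of macrophages, had 4 Vector peaks (321, 327, 315 and 90 bp) and no FTO peak. C1qa had 2 and 0, C1qb, Mrc1 and Cx3cr1 had 1 and 0 each, Csf1r had 2 and 1, and Ptprc had 10 and 7. The markers Cd14, with 1 in each list, and Cd68, with 1 in FTO alone, did not follow. C1qc, Adgre1, Lyz2, Itgam and Tyrobp had no peak in either list. The part of these cells in the result was not tested, and in a bulk sample fewer cells of a type and less RNA per cell cannot be told apart.

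A wider list of 125 leukocyte genes was written after the values were seen, so that genes with and without FTO peaks would be counted together. It had 85 genes with a peak and 48 with 2 or more Vector peaks, of which 23 (47.9%, 34.5–61.7%) had no FTO peak. Over the list there were 203 Vector and 97 FTO peaks, with fewer FTO peaks in 57 genes, equal in 19 and more in 9. Under a 200 bp minimum the 23 became 13. Since the list was drawn up with these genes in view, its share supports nothing by itself. It included Siglec1 (463, 757, 300 and 360 bp), a sialic acid receptor of macrophages, the leukocyte integrin chain Itgal (133, 152, 161 and 965 bp), the adaptor genes Samsn1 (167, 72, 150 and 130 bp) and Dok2 (142, 282 and 2004 bp), the cytokine receptor gene Csf2ra (136, 167 and 167 bp) and the G protein gene Gna15 (523, 185 and 1898 bp). Other leukocyte genes kept FTO peaks, with 8 and 2 in Syk, 6 and 2 in Inpp5d, 9 and 6 in Hcls1, 6 and 7 in Lyn and 6 and 10 in Nckap1l. Lilrb2 (309 and 180 bp) and Pira2 (309 and 331 bp) are related receptor genes that neighbour each other, and reads shared between them could not be separated here.

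Signalling by Toll-like receptors and NF-κB, also listed after the values were seen, had 7 genes without an FTO peak among 32 (21.9%), and 3 under a 200 bp minimum. They ran from the receptor Tlr4 through the adaptors Tirap (91 and 20 bp) and Traf2 (273 and 751 bp) and the kinases Irak1 (1009 and 382 bp) and Ikbke (102, 116 and 197 bp) to Malt1 (178 and 128 bp) and the NF-κB subunit Nfkb1 (90 and 189 bp). In contrast, Tnip1 had 11 Vector and 10 FTO peaks, Ikbkb 6 and 7 and Tank 6 and 8.

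The interferon genes, listed in the same way, stood on both sides. Of 20 genes with 2 or more Vector peaks, 6 (30.0%, 14.5–51.9%) had no FTO peak, and 1 under a 200 bp minimum. These included the receptor chain Ifngr1 (105 and 164 bp), the transcription factor Irf9 (184 and 345 bp), the kinase Eif2ak2 that double-stranded RNA activates (1777 and 121 bp), Parp9 (854, 390 and 175 bp) and Epsti1 (270 and 74 bp). The whole list nevertheless had 77 Vector and 72 FTO peaks, with 16 genes having more FTO peaks and 15 fewer, and 7 genes had 2 or more FTO peaks and no Vector peak. Cmpk2 had 0 Vector and 4 FTO peaks, and Rsad2, Oasl, Oas1f, Gbp1, Gbp4 and Nlrc5 had 0 and 2 each. Most of these are induced by interferon.

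Signalling genes were otherwise spread thinly. The lists gave 3 of 25 genes for PI3K-Akt and mTOR, 2 of 19 for ion channels and calcium handling (10.5%), 2 of 21 for Wnt (9.52%), 2 of 26 for cadherins and junctions (7.69%), 1 of 23 for receptor tyrosine kinases and growth factors (4.35%), 1 of 30 for axon guidance (3.33%) and 1 of 31 for MAPK (3.23%), all with intervals that included 8.29%. Examples were the Tie2 ligand Angpt2 (487, 156, 122 and 914 bp), the cation channel Trpc6 (167, 775 and 165 bp), the potassium channel Kcnk2 (101, 187 and 140 bp), the secreted Wnt antagonist Frzb (741 and 205 bp), the giant cadherin Fat3 (1800 and 623 bp) and the stress kinase Mapk9 (183 and 125 bp). TGF-β and BMP signalling had no gene in the set (0 of 26, upper Wilson limit 12.9%), with 92 Vector and 98 FTO peaks. Chromatin and histone enzymes had none either (0 of 62, upper limit 5.83%), with 416 Vector and 361 FTO peaks. The genes of that list with 2 or more Vector peaks had a median of 6 Vector peaks, however, and of all genes with 6 only 2.54% had no FTO peak.

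Of the m6A machinery, 1 of 17 genes (5.88%) was in the set. It was Rbmx, an RNA-binding protein that reads m6A (112, 116 and 172 bp). Over the list there were 79 Vector and 87 FTO peaks, with 9 genes having more FTO peaks, 9 equal and 4 fewer. The shares of all lists have to be read with their number of peaks per gene. Among genes with 2 or more Vector peaks, the median was 2.5 Vector peaks for innate immunity, 3 for matrix glycoproteins and 4 for mitosis and for replication, and the share of all genes without an FTO peak was 14.0% with 2, 8.04% with 3 and 5.69% with 4. In all, the 19 functional lists covered 57 of the 374 genes, and 317 were in none of them.

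**Figure D3:**
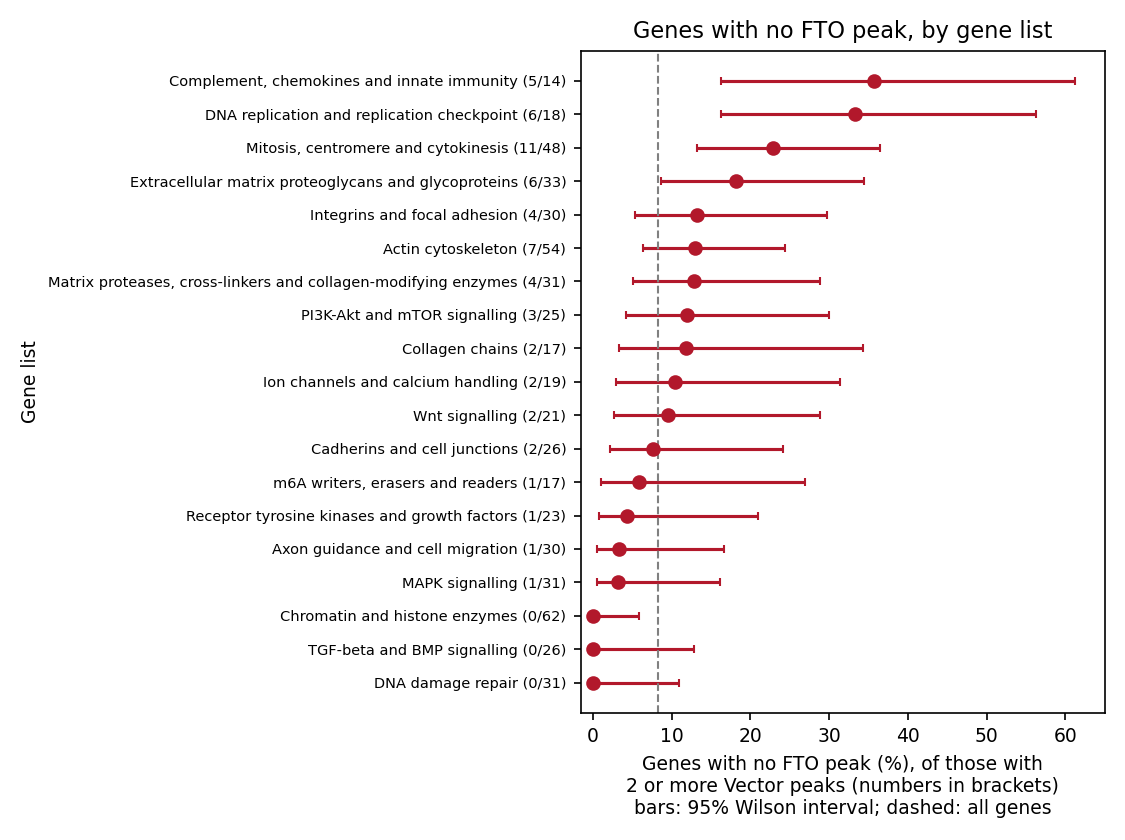
Share of genes with no FTO peak among those with 2 or more Vector peaks (%, x axis), for each of the 19 functional gene lists (y axis, with the numbers of genes in brackets). Points are shares, bars are 95% Wilson intervals and the dashed line is the 8.29% of all genes. Innate immunity (35.7%), replication (33.3%), mitosis (22.9%) and matrix glycoproteins (18.2%, lower limit 8.61%) have intervals above the line, and chromatin enzymes (0 of 62) have one below it. The shares use the same peak counts that selected the genes. The lists were chosen with earlier results of these data known, so the intervals are no test against the line. The line does not take the number of peaks per gene into account, and the lists differ in it.

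Among genes outside those lists, the soluble guanylate cyclase pair stood out after the values were seen. Gucy1a1 (158, 356, 710 and 486 bp) and Gucy1a2 (717, 486 and 375 bp) encode the 2 α subunits of the nitric oxide receptor, and both held a peak of 486 bp. Pde4b, which breaks down cyclic AMP, had 748, 179, 183 and 824 bp. Groups by gene name were formed after the values were seen, and are set beside the 8.29% of all genes. No FTO peak was found for 5 of 17 mitochondrial ribosomal protein genes (13.3–53.1%) and 3 of 6 mitochondrial import genes of the Timm and Tomm families (18.8–81.2%), for 2 of 5 nucleoporins, 2 of 7 GalNAc transferases, 3 of 20 Cep proteins, 3 of 22 F-box proteins, 1 of 8 proteasome subunits and 1 of 10 RNA polymerase subunits. Examples were Mrpl45 (178, 84 and 596 bp) and Timm50 (157 and 109 bp). The mitochondrial chaperone gene Hspd1 had 96, 246 and 600 bp and Suclg1, of the citric acid cycle, had 281, 104, 189 and 263 bp. Single genes in no list, also picked after their values were seen, were the exonuclease Xrn2 (171, 128, 45 and 64 bp), the exosome subunit Exosc10 (137, 124, 191 and 149 bp) and the tRNA-processing enzyme Elac2 (73, 121, 145 and 631 bp).

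A part of the gene families by name is given here, beside the 8.29% of all genes. Of 91 Zfp genes with 2 or more Vector peaks 2 were in the set, of 59 Slc genes 3, of 40 Ccdc genes 1, and of 25 Usp genes and 20 Arhgap genes none. Of 24 kinesins 3 were, of 10 integrin genes 4 and of 4 Kcn potassium channels 3, the last being Kcnk2, Kcnk13 and Kcnv2. The families differ in size, and shares of under 10 genes rest on few counts. The number of Vector peaks per gene, with which the share falls, was not matched between families, and no family was tested.

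The peaks of the set were mostly short. Their median was 178 bp, the middle 50% ran from 120 to 358.5 bp and the range from 20 to 4379 bp. Of the 988 peaks, 146 (14.8%) were shorter than 100 bp, 426 (43.1%, 40.1–46.2%) reached 200 bp and 72 (7.29%, 5.83–9.08%) reached 1000 bp. Peaks of genes that also had 2 or more Vector peaks but kept an FTO peak numbered 16802, with a median of 185 bp (124–428), and 11.4% (10.9–11.9%) of them reached 1000 bp. The medians were close, whereas the share of long peaks was lower in the set. The intervals treat peaks as independent, although peaks cluster within genes, so they are no test of this difference.

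The gap between the medians was wider among genes with few peaks. With 2 peaks per gene, the median was 200.5 bp (middle 50% 123–436) in the set and 317 bp (159–824.75) in genes that kept an FTO peak. It was 170 and 227 bp with 3 peaks and 158.5 and 187 bp with 4, and with 5 or more the order turned, at 172 and 162 bp. Peaks of 1000 bp or more made up 11.5% and 20.7% with 2 peaks, 5.19% and 14.4% with 3, 1.47% and 11.4% with 4, and 2.13% and 7.37% with 5 or more. Peaks on 1 gene share its RNA, and peaks of 1 library pair are not replicates, so no test was made. For comparison, the genes with 1 Vector peak and no FTO peak had a median of 321 bp, and the FTO peaks of the 126 genes of the opposite pattern had a median of 215 bp.

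**Figure D4:**
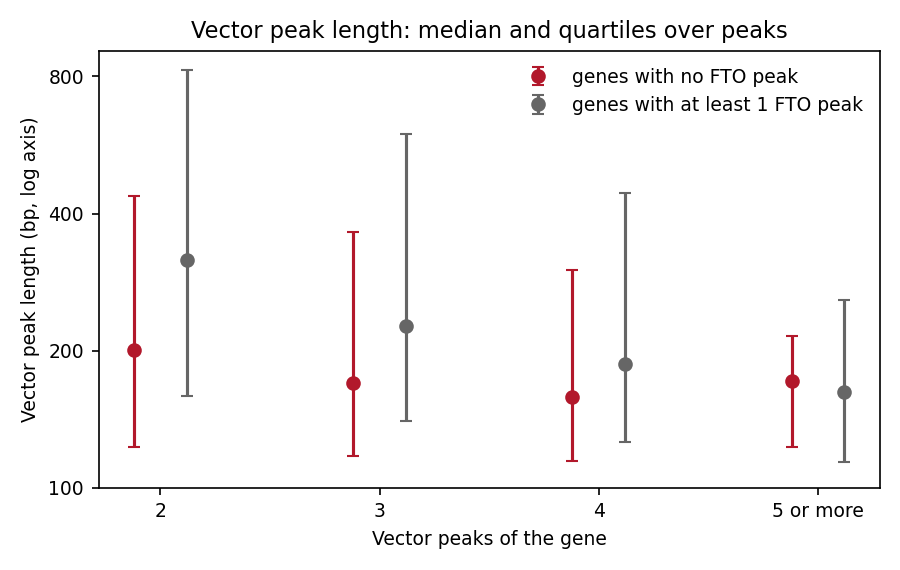
Length of Vector peaks (bp, log axis) by the number of Vector peaks of the gene (x axis), for genes with no FTO peak and genes that kept an FTO peak. Points are medians and bars are the middle 50% of peaks. Medians are 200.5 and 317 bp with 2 peaks and 172 and 162 bp with 5 or more.

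Exons inside coding regions often have lengths divisible by 3, and peaks confined to 1 exon can carry that length. Of the 988 peaks, 389 (39.4%, 36.4–42.5%) had a length divisible by 3, where an even spread gives 33.3%, and the genes that kept an FTO peak had 38.1%. The longest peak was the one nearest the 3′ end in 104 of 179 genes of the set with 2 peaks (58.1%, 50.8–65.1%), in 45 of 85 with 3 or 4 (52.9%) and in 8 of 19 with 5 or more (42.1%, 23.1–63.7%). In genes that kept an FTO peak these shares were 61.7%, 54.1% and 47.0%, each inside or close to the intervals of the set. The 3′ end is where m6A is usually dense, around the stop codon.

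Summed over a gene, the Vector peaks of the set had a median of 621 bp. The 10 largest sums belonged to Zdbf2 with 7005 bp, Acan with 5485 bp, Nexmif with 4961 bp, Prdm16 with 4675 bp, Klhl31 with 4193 bp, Sphkap with 4134 bp, Vdr with 3400 bp, Plcl1 with 3343 bp, Fgd5 with 3198 bp and Foxp2 with 3135 bp. Most of these sums came from 1 or 2 long peaks. Zdbf2, an imprinted gene, had peaks of 3924 and 3081 bp, Nexmif, a gene of neurite development, had 4379 and 582 bp, and the transcriptional regulator Prdm16 had 1417 and 3258 bp. The vitamin D receptor gene Vdr had 185 and 3215 bp, and Fgd5, an exchange factor for Cdc42 of endothelial cells, had 1830 and 1368 bp. A peak of 1000 bp or more was present in 66 genes and one of 2000 bp or more in 18. All peaks reached 200 bp in 85 genes and none did in 115.

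Other regulators in the set were the thyroid hormone receptor Thrb (206 and 2303 bp), the cytokine Lif (179 and 1712 bp) and the transcription factors Ebf3 (192, 178, 189 and 885 bp), Batf (323 and 570 bp), Lmo2 (216 and 958 bp) and Mycn (1281 and 874 bp), named after their values were seen. Aldh1a2, which makes retinoic acid and marks the epicardium, had 138 and 103 bp.

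The peak names allowed a check on what stood at these genes in FTO. In both lists the numbers in the names followed the order of genes along the chromosomes (median Spearman correlation over chromosomes 0.991 and 0.992, lowest 0.9 and 0.905, given as a description), and in 99.3% of genes of each list they ran without interruption by another gene. The numbers reached 59557 in Vector and 52060 in FTO, so 38308 and 34264 called peaks were numbered but not listed. For 350 of the 374 genes, flanking genes with peaks in both lists bracketed the place. Neighbouring genes can share a bracket, and the 350 genes lay in 330 distinct ones. Counting each number once, these brackets held 1117 listed and 4054 unlisted Vector numbers, and 169 listed and 3655 unlisted FTO numbers. The unlisted FTO numbers were thus 0.902 of the unlisted Vector numbers, and the listed ones 0.151. Around the 3932 bracketed genes that kept an FTO peak, these ratios were 0.876 and 0.793, also with each number counted once. The listed ratio is low by the selection itself, whereas the unlisted numbers were not used by it.

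In FTO, the bracket of 1 gene held no peak number at all, and those of 15 of the 350 genes, this one included, held fewer numbers than the gene had Vector peaks. Among the 3932 bracketed genes that kept an FTO peak, this held for 59. The selection itself raises the count of the set, since its genes have no listed FTO peak. The gene without any FTO number was Psmd2, a subunit of the proteasome, with 178 and 163 bp in Vector, whose bracket went from 4 numbers to 0. Kif4a went from 20 numbers to 1 between P2ry4 and Gdpd2, so at most 1 numbered FTO peak could lie on a gene with 7 listed Vector peaks. Acan went from 16 to 5 between Aen and Mfge8, with 1 of the 5 listed on Isg20. Adamtsl2 went from 14 to 4, Bub1b from 11 to 5, C3 from 10 to 1, Acot7 from 14 to 2, Nup107 from 9 to 3, Cdc6 from 6 to 2 and Racgap1 from 6 to 1. The 15 genes were picked by having fewer FTO numbers between the flanks than Vector peaks, so their low FTO numbers are a description.

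Elsewhere the brackets left room for peaks that were numbered and not listed. Limch1 went from 37 to 15, Tnik from 34 to 13, Tmem132d from 39 to 8, Spdl1 from 65 to 32, Mcm3 from 24 to 22, Pik3ap1 from 12 to 11 and Epha7 from 19 to 21. Unlisted FTO numbers were fewer than unlisted Vector numbers in 174 of the 330 distinct brackets, equal in 35 and more in 121. Around the genes that kept an FTO peak, fewer was also the most frequent outcome and equal the rarest. This order is therefore not particular to the set. Why numbers were left out of the lists is not stated in the sources used here, and what lies at them was not analysed. In the brackets of 19 genes a listed FTO peak had no gene ID, among them those of Foxp2, Sh2d4a, E2f8, Angpt2, Troap and Nup93. None of these FTO peaks lay on a transcript that held the Vector peaks of the set. A peak of the gene could therefore stand there under no ID only on another transcript. A listed FTO peak of the same length as a Vector peak of the gene was found in 1 bracket, that of Ppp1r2 with 78 bp, where it was assigned to Ncbp2.

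**Figure D5:**
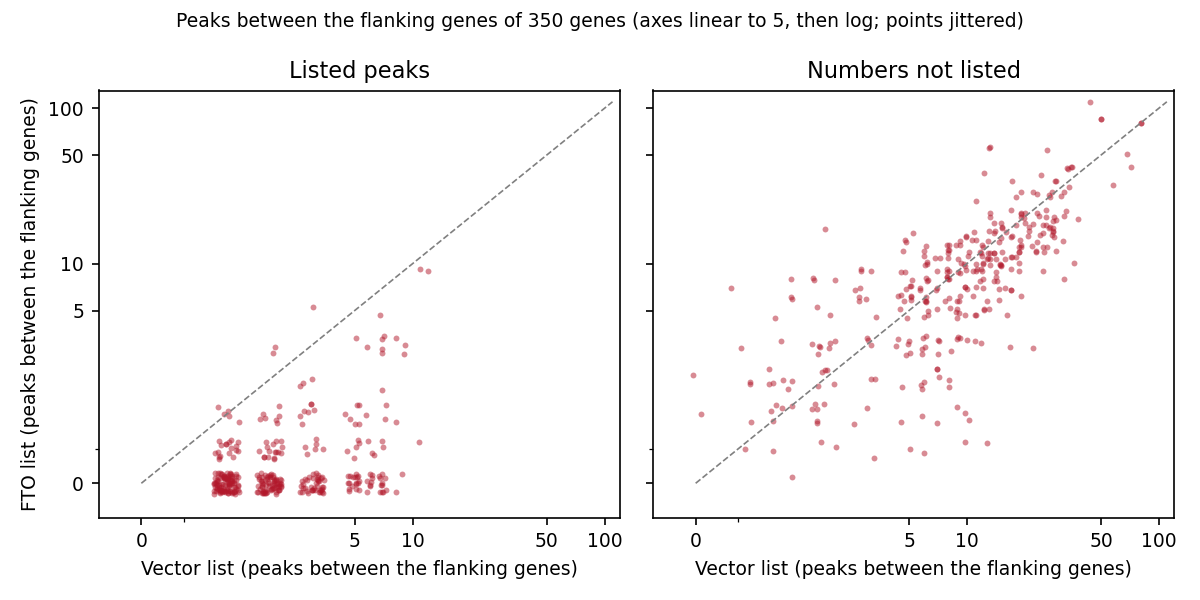
Peaks between the flanking genes in FTO (y axis) against Vector (x axis) for the 350 bracketed genes, with listed peaks on the left and numbers without a listed peak on the right. Each point is 1 gene, axes are linear near 0 and then logarithmic, points are jittered, and the dashed line marks equal numbers. Listed peaks lie mostly at 0 in FTO (250 genes) by the selection, and the numbers not listed scatter around the line. Genes that share a bracket are shown each.

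The genes of the set were 4.84% of all genes with a Vector peak, and 17 of the 7722 consecutive pairs of such genes (0.22%) consisted of 2 genes of the set, among them Gtf2h1 with Tsg101, Timp3 with Fbxo7, and Caprin1 with Lmo2. How many pairs a random placement would give was not computed, so the pairs are a description and no sign of clustering. Overlapping genes can share reads, and the strand setting of the counting is not given in the sources used here.

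The genes that the study names were split. Acan (11 and 0) and C1qa (2 and 0) were in the set. Eprs1, a tRNA synthetase gene, had 3 Vector peaks and 1 FTO peak, Adamts2 4 and 1, and Antxr1 10 and 8. Cspg4 had 3 and 6 and Pdgfa 6 and 7. Foxc2, Itgb1 and F2r had 1 and 1 each and Itga1 0 and 1, and Rapgef3, Fcna, Thbs1, Serpinh1, Col1a1 and Col3a1 had no peak in either list.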

How the data were processed

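m6A-seq was performed by the authors on NRCFs of the Vector and FTO groups, as 2 libraries per group, 1 IP and 1 input (4 samples). Groups were taken from the labels. The authors deposited 1 peak list per group with the peak length in bp, which is not normalized, a transcript and a gene ID. The submitters' processing notes name cutadapt 1.9.3, HISAT2 2.0.4 and the build rn6. The peak names carry the prefix MACS, and the caller's version, threshold and annotation are not given in the sources used here. Depth is unknown, since the lists hold no read counts. 0 per-sample columns were left aside.

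Peaks were counted per gene ID, and rows without one (248 in Vector, 213 in FTO) were left out. Among transcripts without a gene ID, 41 had 2 or more Vector peaks and 6 of these had no FTO peak. Symbols, strands and upstream sequences were taken from RefSeq tables of GRCr8, matched on gene ID, and no genome was used. The members, gene lists and rules were chosen with earlier results of these data known. Named are genes of the set with 5 or more Vector peaks, the 10 with the largest summed length, members of the gene lists and name families, and genes the study names, and any other is said to be chosen after its values were seen. No p-values were computed, since 1 library pair per group allows no test. Alternatives were length minimums of 100 and 200 bp, counting by transcript, unique peak names, a minimum of 3 peaks, 1 FTO peak allowed for genes of 4 or more, and rows without gene ID assigned by transcript. Some genes are not reported here. Counting was tested on simulated lists. Python 3.11.15, numpy 2.4.6, pandas 2.3.3, scipy 1.17.1 and matplotlib 3.10.9 were used.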

Additional observations from a re-analysis of the deposited data

How the results depend on the processing

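Of 92 values recomputed under alternatives, 48 stayed within 1.5 times the reported value and 44 did not, most of these in gene lists of few members. With peaks of at least 200 bp in both lists, the 374 genes became 170, of which 135 were shared (79.4% of the 170, 36.1% of the 374), their 988 Vector peaks became 378, the 126 genes of the opposite pattern 78, the median length 407.5 bp by construction, and the 57 genes in functional lists 27. With 3 or more peaks, these counts were 134 genes, 508 peaks, 28 genes of the opposite pattern and 32 genes in lists. A 200 bp minimum for Vector peaks only, chosen after seeing the data, left 135 genes and 302 peaks. At 200 bp and at 3 peaks, the mitosis list had 3 and 6 members in place of 11, replication 2 at 200 bp in place of 6, innate immunity 1 and 2 in place of 5, and the leukocyte genes 13 and 12 in place of 23. A minimum of 100 bp (330 genes) and 1 FTO peak allowed for genes of 4 or more Vector peaks (475 genes) stayed within 1.5 times. Counting unique peak names or assigning rows by transcript left the 374 genes as they were.

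No paired analysis was possible because only 1 pair of libraries was made for Vector and 1 for FTO, and leaving out a replicate was not possible for the same reason. Unknown depth limits every statement that a gene had no FTO peak to what was listed.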
